A study of Mus musculus with 6 samples.

Results

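Nuclear receptors are transcription factors whose activity many of them set by binding a small lipid-soluble ligand. The 10 genes described here are receptors with known roles in macrophages or osteoclasts. They were picked by symbol, with earlier results of these data already known: Pparg, Ppard, Rxra, Rara, Vdr, Nr3c1, Esr1, Nr4a1, Nr4a2 and Nr4a3. All 10 were found among the 24940 genes of the table. RNA was sequenced from mouse bone marrow macrophages, the cells that fuse into bone-resorbing osteoclasts when RANKL is added. Cultures with M-CSF at 30 ng/mL alone (-R), with M-CSF and RANKL at 100 ng/mL (+R), and with both cytokines plus a methanol leaf extract of A. distichum, the Korean white forsythia, at 10 µg/mL (R+LE) gave 2 libraries each. M-CSF was present in all 3 groups, no genetic change was made, and no group received the extract without RANKL. The methods of the study give a treatment time of 3 days in every group, so no early response was sampled. The sample labels give C57BL/6 mice of 6 to 8 weeks as the source, whereas the methods of the study name ICR mice, so the strain is uncertain. The labels do not say whether the 2 libraries of a group came from separate cultures or animals, so the p-values measure only the spread between these libraries, which may be technical.

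RXR proteins pair with the PPAR, RAR and VDR proteins, so a level of Rxra bears on several receptors at once. PPAR proteins respond to fatty acids, RAR proteins to retinoic acid, the vitamin D receptor to calcitriol, the product of Nr3c1 to glucocorticoids and that of Esr1 to oestrogen. The NR4A receptors work largely without a ligand and are known as immediate early genes, which means that their transcription is switched on quickly and briefly after a stimulus. In the osteoclast lineage, Pparg and Rxra are known to promote differentiation, while calcitriol, glucocorticoids and oestrogen act on bone in part through cells other than osteoclasts.

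Levels are RPKM, reads scaled by transcript length and by the mapped reads of the library, so they can be compared between genes. The 6 libraries held 29390164 to 34846386 mapped reads, and 3 reads on a transcript of 1 kb corresponded to 0.0861 to 0.102 RPKM. The cell markers fitted the group labels: all 9 osteoclast markers rose more than 2-fold with RANKL, with summed levels of 43.4 and 45.0 RPKM in -R against 1894 and 2161 RPKM in +R, and all 9 fell more than 2-fold with the extract, to 340 and 393 RPKM. The summed level of 6 macrophage markers was 6389 to 7004 RPKM in -R, 2606 to 3349 RPKM in +R and 3630 to 4044 RPKM in R+LE, most of it from Lyz2. Of these 6 genes, 5 fell with RANKL and Itgam did not pass the test (0.34 on the log2 scale). With the extract 1 rose, Mertk by 0.52, a rise of 0.33 to 0.72 in 17 alternative analyses that passed in 7 of them. R+LE was lower than -R in 4 and higher in 1, Itgam. These marker sums differed between the groups, and their part in the changes below was not tested. In bulk RNA, fewer cells of a type and less RNA per cell cannot be told apart.

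Sequence before the start of each gene was taken from the RefSeq promoter table of build GRCm38.p6, and the 250 bases upstream were searched. The table held 9 of the 10 receptors, all but Nr3c1. It listed several promoters for some of them, 3 for Pparg, 2 for Rxra, 4 for Rara and 2 for Esr1. Only the promoter at the start of the counted transcript is described for each gene. The upstream stretches of Pparg, Rxra, Nr4a1 and Nr4a2 are shown because 3 of these genes were called with RANKL and Nr4a2, a near relative of Nr4a1 whose libraries overlapped between groups, has the same count of one motif. Capitals mark matches, on either strand, to AGGTCA (the half-site that many nuclear receptors bind), AAAGGTCA (the NR4A site, which contains the former), TGANTCA (the AP-1 site), TGACG (the half-site of a cyclic AMP response element), GAGGAA (the core of a PU.1 site) or CANGTG (an E-box).
Pparg, chr6:115362099-115362348, plus strand: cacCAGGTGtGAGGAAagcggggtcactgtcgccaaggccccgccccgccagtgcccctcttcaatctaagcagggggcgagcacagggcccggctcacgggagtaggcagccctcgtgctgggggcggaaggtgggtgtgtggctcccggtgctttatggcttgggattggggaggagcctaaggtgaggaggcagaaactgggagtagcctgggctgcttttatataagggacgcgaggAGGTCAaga
Rxra, chr2:27709042-27709291, plus strand: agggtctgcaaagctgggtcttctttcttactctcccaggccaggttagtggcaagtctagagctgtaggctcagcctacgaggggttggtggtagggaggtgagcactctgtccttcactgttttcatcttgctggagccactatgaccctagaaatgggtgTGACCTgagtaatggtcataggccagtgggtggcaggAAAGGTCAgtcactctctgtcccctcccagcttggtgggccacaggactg
Nr4a1, chr15:101266596-101266845, plus strand: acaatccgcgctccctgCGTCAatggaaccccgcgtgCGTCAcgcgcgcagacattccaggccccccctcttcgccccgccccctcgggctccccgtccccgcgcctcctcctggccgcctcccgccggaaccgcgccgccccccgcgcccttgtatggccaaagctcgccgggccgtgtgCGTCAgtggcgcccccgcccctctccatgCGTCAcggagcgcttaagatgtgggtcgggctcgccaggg
Nr4a2, chr2:57124004-57124253, minus strand: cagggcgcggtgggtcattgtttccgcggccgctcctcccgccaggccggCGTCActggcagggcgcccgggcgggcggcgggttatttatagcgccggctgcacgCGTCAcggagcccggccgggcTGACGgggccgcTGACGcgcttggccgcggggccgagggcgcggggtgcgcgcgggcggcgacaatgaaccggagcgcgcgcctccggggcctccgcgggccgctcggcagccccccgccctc

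The described window of Rxra held 2 copies of AGGTCA, 1 of them within AAAGGTCA, and 1.36% of the 32851 promoters held 2 or more AGGTCA. That of Pparg held 1 copy, and 14.0% of all promoters held 1 or more. It also held 1 GAGGAA (23.3% of promoters) and 1 CANGTG (39.5%). Nr4a1, Nr4a2 and Nr4a3 each held 4 copies of TGACG, a number reached by 45 promoters in all, or 0.137%. The windows of Nr4a1 and Nr4a2 had a GC content of 74.4% and 80.0%, against a median of 52.4% over all promoters. No window of the 9 receptors held TGANTCA (6.75% of promoters), and AAAGGTCA was in 1.34% of promoters. A match of letters is a description and not a binding site, since no binding was measured.

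A gene was tested where its mean over the 6 libraries was at least 0.5 RPKM, which kept 11595 genes and 6 of the 10 receptors: Pparg, Ppard, Rxra, Rara, Nr3c1 and Nr4a1. Fold changes are on the scale of log2(RPKM + 0.5), fitted with limma, and p-values are Benjamini-Hochberg adjusted over all 11595 genes. Rose and fell mean an adjusted p below 0.05. With RANKL alone, 5 of the 6 tested receptors fell, where 21.5% of all tested genes fell and 23.9% rose. At least 2-fold falls were called for 3 of them, Pparg, Rxra and Nr4a1, against 8.92% of all genes. With the extract added to RANKL, 2 of the 6 rose, Pparg and Rxra, where 5.19% of all genes rose and 6.86% fell. The rise of Pparg was at least 2-fold, against 1.46% of all genes. Between R+LE and -R, 4 of the 6 receptors were lower, against 19.0% of all genes lower and 15.3% higher, and 2 of them, Rxra and Nr4a1, were at least 2-fold lower, against 6.36%. The median log2 fold change of the 6 tested receptors was -1.08 with RANKL, 0.17 with the extract added and -0.69 between R+LE and -R, beside 0.05, -0.05 and -0.01 over all genes tested. Both comparisons with +R share the +R libraries, and both with -R share the -R libraries.

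**Figure D1:**
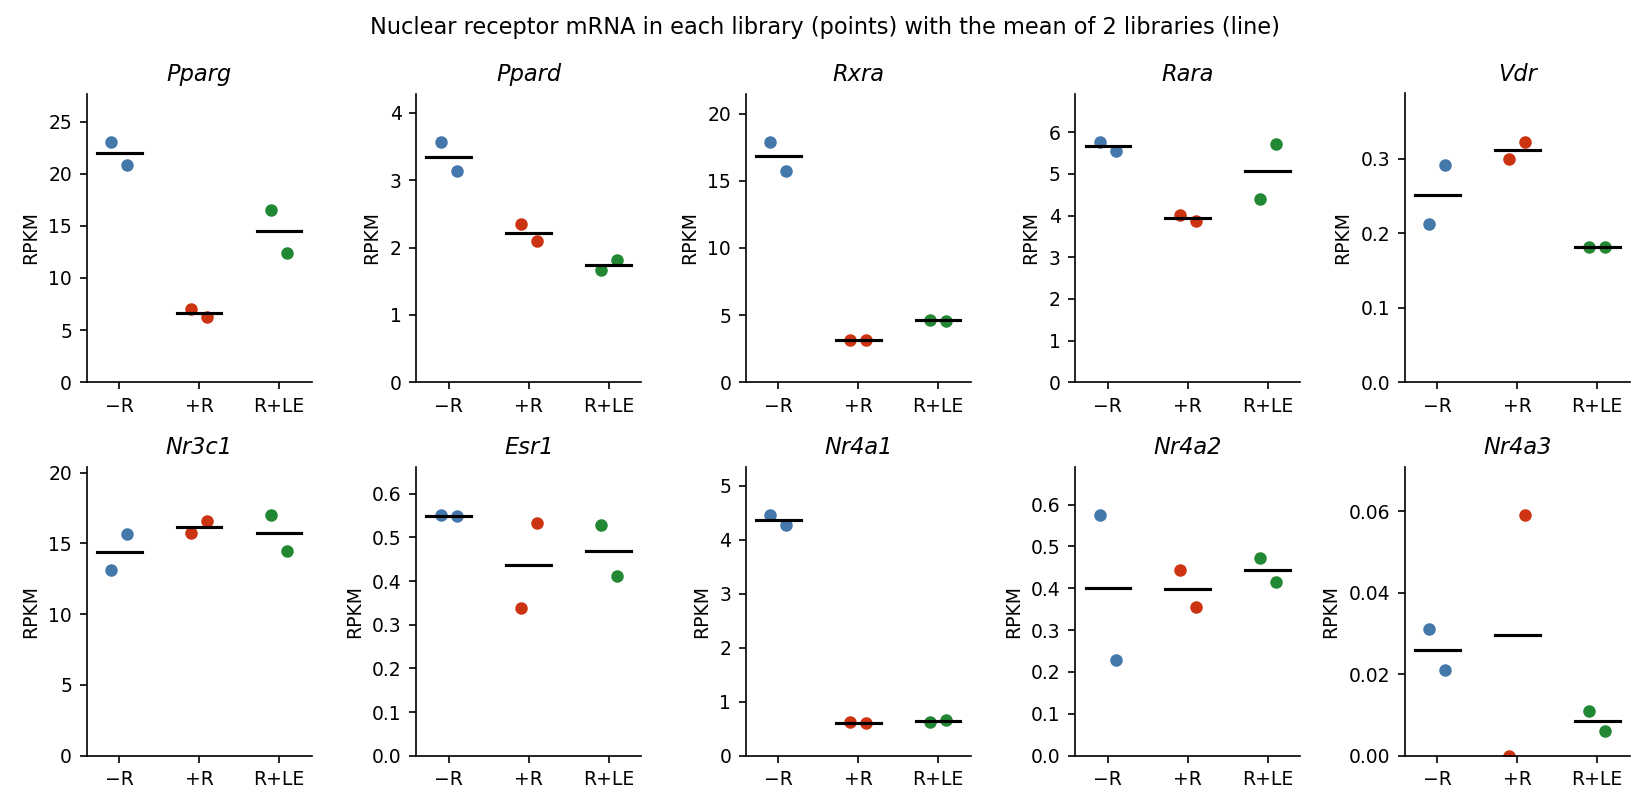
Level of each of the 10 receptors in RPKM (vertical axis, linear, a separate scale for each gene) in the -R, +R and R+LE groups, with a point for each library and a line at the mean of the 2 libraries. Pparg runs from 23.1 and 20.9 RPKM in -R to 7.03 and 6.25 in +R and back to 16.6 and 12.4 in R+LE, while Nr4a1 stays low in both groups with RANKL.

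The order of the levels changed between groups. In -R, Pparg was highest, followed by Rxra, Nr3c1, Rara, Nr4a1 and Ppard, with no overlap of libraries between neighbours in this order. In +R, Nr3c1 came first, then Pparg, Rara, Rxra, Ppard and Nr4a1. In R+LE, the libraries of Nr3c1 and Pparg overlapped at the top, and so did those of Rara and Rxra below them. Esr1, Nr4a2, Vdr and Nr4a3 were the lowest 4 in every group. Esr1 and Nr4a2 overlapped in all 3 groups, and Vdr overlapped with Nr4a2 in -R only.

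Pparg encodes the fatty acid receptor that drives lipid uptake and storage genes. It lies at chr6:115362349-115490401 on the plus strand of mm10 (transcript NM_001308354, 1766 bases). Its level was 23.1 and 20.9 RPKM in the 2 libraries of -R, 7.03 and 6.25 RPKM in +R, and 16.6 and 12.4 RPKM in R+LE. The groups did not overlap, and R+LE lay between the other two. The mean level was 3.31-fold lower in +R than in -R, a log2 fold change of -1.65 (SE 0.16, adjusted p = 4.82e-07). With the extract it rose by 1.06 on the log2 scale (SE 0.16, adjusted p = 0.000314), and it stayed below -R by a log2 fold change of -0.60 (adjusted p = 0.00762). The rise with the extract passed the test in all 17 alternative analyses but was at least 2-fold in 15 of them: it was 0.98 without +R replicate 2 and 0.85 without R+LE replicate 1. The difference from -R no longer passed the test without -R replicate 1, without R+LE replicate 2 and without the filter, with adjusted p up to 0.0968.

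Markers of adipocytes, the cell type in which Pparg is best known, summed to 0 to 0.29 RPKM in -R, 0.09 RPKM in both +R libraries and 0 to 0.04 RPKM in R+LE over 5 genes, with Lep at 0. Neutrophil markers summed to 15.3 to 17.2 RPKM in -R, 0.66 to 0.82 RPKM in +R and 0.56 to 2.52 RPKM in R+LE, and their part in the falls with RANKL was not tested.

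Ppard encodes the more widely expressed PPAR. Its level was 3.57 and 3.13 RPKM in -R, 2.35 and 2.10 RPKM in +R, and 1.67 and 1.82 RPKM in R+LE. Unlike Pparg, it had its lowest libraries in R+LE. It fell with RANKL by a log2 fold change of -0.50 (SE 0.16, adjusted p = 0.0196), and no longer passed without the filter, without -R replicate 1 and without +R replicate 2 (adjusted p up to 0.129). The difference between R+LE and +R was -0.28 (95% interval -0.62 to 0.07, adjusted p = 0.341), and R+LE was below -R by -0.78 (adjusted p = 0.00155). Ppara, the third PPAR, was at most 0.041 RPKM in any library. Pparg made up 86.6% and 86.9% of the summed PPAR level in the -R libraries. This share was 74.8% and 74.5% with RANKL, and 90.8% and 87.1% with the extract as well.

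Rxra encodes the common partner of PPAR, RAR and VDR proteins and lies at chr2:27709292-27763319 on the plus strand (NM_001290481, 5076 bases). Its level was 17.9 and 15.7 RPKM in -R, 3.17 and 3.14 RPKM in +R, and 4.62 and 4.59 RPKM in R+LE. Both groups with RANKL were far below -R, and R+LE lay slightly above +R without overlap. The mean was 5.34-fold lower in +R than in -R (log2 fold change -2.24, SE 0.14, adjusted p = 4.04e-09). The rise with the extract was 0.48 on the log2 scale (SE 0.14, adjusted p = 0.0319), and it did not pass in 9 of the 17 alternative analyses (adjusted p up to 0.138), among them each that left out 1 library. R+LE stayed below -R by a log2 fold change of -1.76 (adjusted p = 1.11e-07).

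A second RXR gene went the other way. Rxrb, whose product can stand in for that of Rxra in many receptor pairs, was at 13.1 and 10.5 RPKM in -R, 22.6 and 23.2 RPKM in +R, and 17.4 and 16.0 RPKM in R+LE. It rose with RANKL by 0.93 on the log2 scale (adjusted p = 8.24e-05), while R+LE differed from +R by -0.45 (adjusted p = 0.0585). Rxrg was at 0 in 5 libraries and at 0.015 RPKM in the other. The summed RXR level was 31.0 and 26.3 RPKM in -R, 25.8 and 26.4 RPKM in +R, and 22.01 and 20.6 RPKM in R+LE. Sums of -R and +R overlapped and those of R+LE lay below both, whereas the shares of Rxra in them did not overlap between groups. Rxra made up 57.7% and 59.9% of the sum in the -R libraries against 12.3% and 11.9% with RANKL, and 21.0% and 22.3% with the extract as well.

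Rara encodes a retinoic acid receptor. Its level was 5.78 and 5.55 RPKM in -R, 4.02 and 3.87 RPKM in +R, and 4.41 and 5.72 RPKM in R+LE. The libraries of R+LE lay above those of +R and overlapped those of -R. It fell with RANKL by -0.47 on the log2 scale (SE 0.15, adjusted p = 0.0189), and no longer passed without the filter or without -R replicate 1, -R replicate 2 or +R replicate 2 (adjusted p up to 0.102). The difference between R+LE and +R was 0.31 (95% interval -0.01 to 0.64, adjusted p = 0.229). Rarg, a second retinoic acid receptor, was at 6.34 and 6.77 RPKM in -R, 8.35 and 7.78 RPKM in +R, and 6.83 and 7.67 RPKM in R+LE, and the difference with RANKL did not pass the test (adjusted p = 0.112). Rarb was at 0.034 and 0.170 RPKM in -R against 1.14 and 0.795 RPKM in +R and was not tested. Its annotated exons share as many as 1793 bases with a gene on the other strand. Reads counted without strand cannot be told apart there, though these bases need not lie in the counted transcript. Rara held 47.5% and 44.5% of the RAR sum in the -R libraries, against 29.8% and 31.1% with RANKL and 38.0% and 41.7% with the extract as well.

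**Figure D2:**
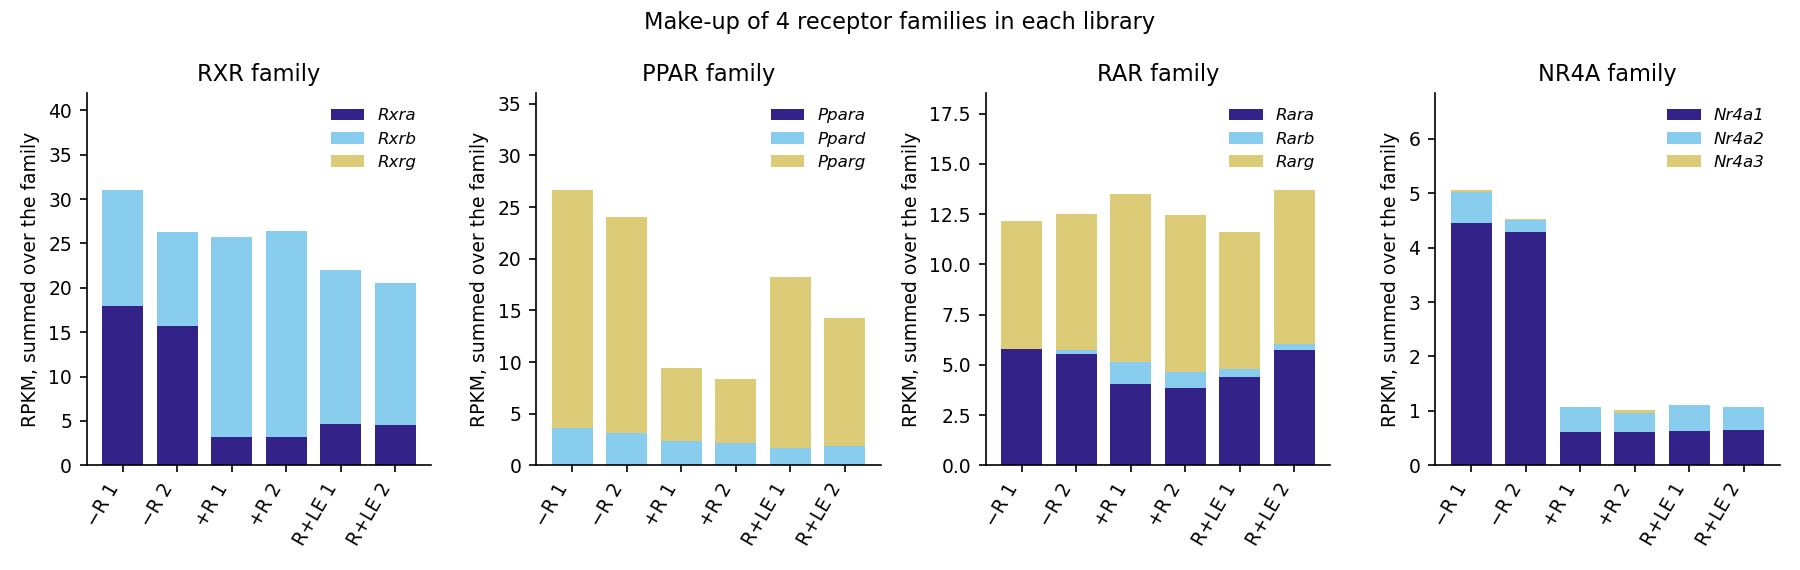
Summed level in RPKM of the RXR, PPAR, RAR and NR4A genes in each library, stacked by gene, with 2 bars per group. The RXR bars of -R and +R overlap in height, at 25.8 to 31.0 RPKM, and those of R+LE are lower, at 22.01 and 20.6 RPKM, while the Rxra portion shrinks from 57.7% and 59.9% in -R to 12.3% and 11.9% in +R, and the NR4A bars shrink with Nr4a1.

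Nr4a1, at chr15:101266846-101274794 on the plus strand (NM_010444, 2467 bases), encodes an NR4A receptor known to restrain inflammatory gene expression in macrophages. Its level was 4.46 and 4.28 RPKM in -R, 0.621 and 0.607 RPKM in +R, and 0.629 and 0.652 RPKM in R+LE, from 323 and 368, 47 and 46, and 49 and 49 reads. Every library with RANKL was far below both of -R, and the groups with and without the extract lay close together. The mean was 7.11-fold lower in +R than in -R, with a log2 fold change of -2.13 (SE 0.18, adjusted p = 1.33e-07), smaller than that ratio because of the added 0.5 RPKM. R+LE differed from +R by 0.03 (95% interval -0.35 to 0.41, adjusted p = 0.948), and from -R by -2.09 (adjusted p = 2.79e-07).

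Nr4a2 and Nr4a3, the other NR4A genes with 4 TGACG copies, were low in every group and were not tested in the filtered fit. Nr4a2 was at 0.575 and 0.228 RPKM in -R, 0.443 and 0.356 RPKM in +R, and 0.473 and 0.414 RPKM in R+LE, with overlap between all groups and 24 to 51 reads. Nr4a3 had 10 reads or fewer in every library, namely 5 and 4 reads without RANKL, 0 and 10 with it, and 2 and 1 with the extract as well, so its libraries cannot show a difference at this depth. Nr4a1 made up 88.03% and 94.5% of the NR4A sum in -R and 56.5% to 60.8% in the libraries with RANKL.

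Nr3c1, the glucocorticoid receptor gene, was the 1 tested receptor of 6 that passed in no comparison. It lies at chr18:39410545-39487245 on the minus strand (NM_008173, 6319 bases). Its level was 13.1 and 15.7 RPKM in -R, 15.8 and 16.6 RPKM in +R, and 17.0 and 14.5 RPKM in R+LE. The difference with RANKL was 0.17 on the log2 scale (95% interval -0.14 to 0.48, adjusted p = 0.371), and R+LE differed from +R by -0.04 (adjusted p = 0.919) and from -R by 0.13 (adjusted p = 0.540). The interval leaves room for changes of up to 0.48 with RANKL.

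Vdr and Esr1 were low in all groups and were not tested in the filtered fit. Vdr, the vitamin D receptor gene, was at 0.212 and 0.291 RPKM in -R, 0.300 and 0.323 RPKM in +R, and 0.182 in both libraries of R+LE, with 27 and 44, 40 and 43, and 25 and 24 reads. The R+LE libraries lay below all others. The mean of Vdr was 1.71-fold lower in R+LE than in +R. In a fit with no filter, over 18427 genes, R+LE differed from +R by -0.25 on the log2 scale. The limma interval, without adjustment, was -0.45 to -0.06, and the difference did not pass the test (adjusted p = 0.185). The value of -0.25 is smaller than that ratio because of the added 0.5 RPKM. Esr1, the oestrogen receptor alpha gene, was at 0.551 and 0.548 RPKM in -R, 0.339 and 0.533 RPKM in +R, and 0.528 and 0.411 RPKM in R+LE. The +R and R+LE libraries overlapped, and in the fit with no filter its adjusted p was 0.431 for RANKL alone, 0.919 for the extract added to RANKL and 0.637 for both together. Nr4a2 and Nr4a3 did not pass in that fit either. A list of 8 stromal and osteoblast markers, cells in which Vdr and Esr1 are known to act, summed to 16.9 to 18.1 RPKM in -R, 11.8 to 15.8 RPKM in +R and 9.2 to 10.6 RPKM in R+LE, and its part in these levels was not tested. None of the 10 receptors shares exon bases with another annotated gene.

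**Figure D3:**
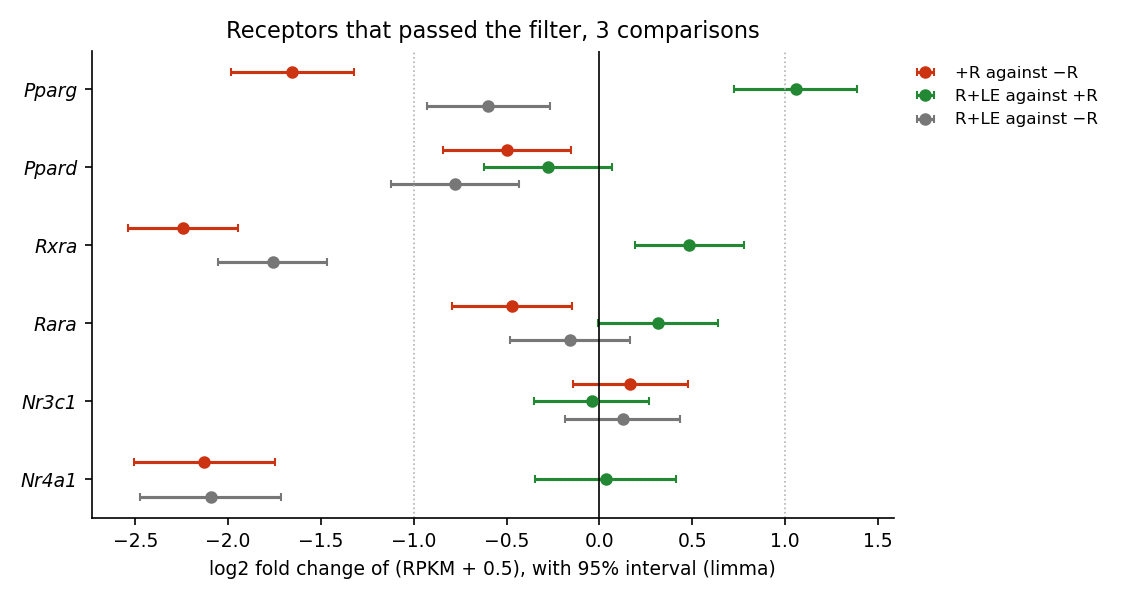
Log2 fold change on the log2(RPKM + 0.5) scale (horizontal axis) of the 6 tested receptors in the 3 comparisons, with 95% intervals from limma as bars and dotted lines at a 2-fold change. Pparg, Rxra and Nr4a1 have the largest falls with RANKL, -1.65, -2.24 and -2.13, and Pparg has the largest rise with the extract, 1.06.

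Of 39 other nuclear receptor genes, 14 passed the filter. Among all tested genes, 23.9% rose and 21.5% fell with RANKL, and 5.19% rose and 6.86% fell with the extract. Between R+LE and -R, 15.3% of all tested genes were higher and 19.0% lower. With RANKL, 5 of the 14 rose and 0 fell: Rxrb (0.93 on the log2 scale), Rora (0.78), Nr2f6 (0.68), Nr2c2 (0.67) and Esrra (0.36), a receptor that works with the coactivator Ppargc1b on mitochondrial genes. Nr2f6 and Nr2c2 overlap exons of genes on the other strand, Rora does so over 82 bases, and Esrra over 73 bases, besides 91 bases shared with a microRNA gene on its own strand. With the extract, 0 of the 14 rose and 2 fell, Rora by -0.86 and Nr2f6 by -0.53. Rora was at 0.442 and 0.589 RPKM in -R, 1.27 and 1.21 RPKM in +R, and 0.385 and 0.529 RPKM in R+LE. It passed the filter only through +R, the group it rose in and fell from. Of the 5 rises with RANKL, that of Rxrb passed in all 17 alternative analyses. Esrra passed in 12 of 17 (adjusted p up to 0.189), Rora in 15 of 16 (up to 0.0694), and Nr2f6 and Nr2c2 in 16 of 17 each (up to 0.0606 and 0.051). With the extract, the falls of Rora and Nr2f6 had adjusted p up to 0.0626 and 0.195. Between R+LE and -R, 2 were higher and 3 lower. The medians of the 14 were 0.17, -0.21 and -0.03, beside 0.05, -0.05 and -0.01 over all genes tested. Of all 49 nuclear receptor genes, 16 had 3 reads or fewer in every library.

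**Figure D4:**
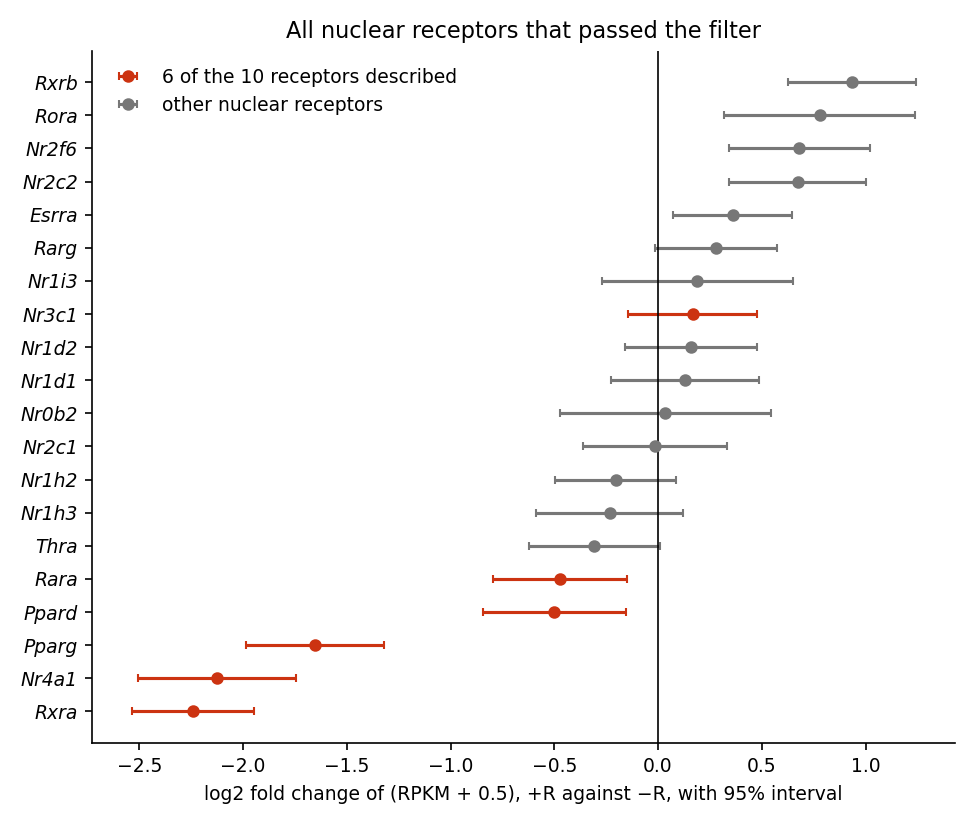
Log2 fold change of +R against -R (horizontal axis, log2(RPKM + 0.5) scale) for the 20 tested nuclear receptor genes, as points with 95% limma intervals, in red for 6 of the 10 receptors and in grey for 14 others. Rxra at -2.24, Nr4a1 at -2.13 and Pparg at -1.65 have the lowest values with RANKL, and the other 14 genes have a median of 0.17.

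Receptors act through coregulator proteins, and the largest change among the tested coactivators was that of Ppargc1b. Of 11 coactivator genes, 10 were tested, and with RANKL 2 rose and 2 fell. These counts are near the shares of all tested genes, of which 23.9% rose and 21.5% fell. Ppargc1b, which is known to raise mitochondrial biogenesis in osteoclasts, was at 0.719 and 0.922 RPKM in -R, 9.29 and 11.3 RPKM in +R, and 2.31 and 3.35 RPKM in R+LE. It rose with RANKL by 3.03 on the log2 scale (adjusted p = 2.99e-09) and fell with the extract by -1.71 (adjusted p = 1.49e-05). Ncoa3, a steroid receptor coactivator, fell with RANKL by -0.96 (adjusted p = 4.32e-05). With the extract, Ppargc1b was the 1 coactivator of 10 that fell and 0 rose, where 6.86% of all tested genes fell and 5.19% rose.

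Genes that make or break down the ligands were mostly low. The counts below stand beside all tested genes, of which 23.9% rose and 21.5% fell with RANKL. With the extract, 5.19% of all tested genes rose and 6.86% fell. Of 13 retinoid handling genes, 3 were tested, and with RANKL 0 rose and 1 fell. Dhrs3, which reduces retinal and so limits retinoic acid, was at 98.3 and 108 RPKM in -R, 16.4 and 15.1 RPKM in +R, and 21.6 and 19.99 RPKM in R+LE, a log2 fold change of -2.67 with RANKL (adjusted p = 6.20e-10). Dhrs9, a retinol dehydrogenase, was the 1 of these 3 that rose with the extract, by 1.06 (adjusted p = 0.0011, up to 0.0804 in 1 alternative analysis). Of 4 vitamin D handling genes, 2 were tested and 1 fell with RANKL, Cyp27a1 by -0.97. Cyp24a1, the calcitriol-degrading enzyme and a well-known Vdr target, had 2 reads in 1 +R library and 0 elsewhere, and Cyp27b1, which makes calcitriol, had 4 reads or fewer in every library. Of 9 genes of glucocorticoid handling and receptor chaperones, 7 were tested, and with RANKL 3 rose and 1 fell. Fkbp4, a co-chaperone of steroid receptors, rose by 1.05 (adjusted p = 5.28e-05), and H6pd, which supplies NADPH for cortisone reactivation, fell by -1.17 (adjusted p = 4.52e-06). H6pd rose with the extract by 0.90 (adjusted p = 0.000348), the 1 of 7 to do so, while Hsd11b1, the reactivating enzyme itself, was at most 0.123 RPKM.

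Known PPAR target genes are of interest beside Pparg because its product switches on lipid uptake. Of 16 such genes, 12 were tested: with RANKL 2 rose and 6 fell, with the extract 3 rose and 1 fell, and between R+LE and -R 0 were higher and 6 lower. Over all tested genes, 23.9% rose and 21.5% fell with RANKL, and 5.19% rose and 6.86% fell with the extract. Between R+LE and -R, 15.3% of them were higher and 19.0% lower. Medians of the 12 targets were -0.61, -0.0005 and -0.55, beside 0.05, -0.05 and -0.01 over all genes tested. Cd36, a fatty acid scavenger receptor, was at 468 and 541 RPKM in -R, 25.5 and 21.4 RPKM in +R, and 140 and 103 RPKM in R+LE. Its order of groups was that of Pparg. Cd36 fell with RANKL by -4.40 (adjusted p = 4.12e-11) and rose with the extract by 2.34 (adjusted p = 6.89e-07). Plin2, which coats lipid droplets, fell with RANKL by -3.07 (adjusted p = 1.70e-09) and rose with the extract by 0.90 (adjusted p = 0.00287; up to 0.0618 in 1 alternative analysis). Cpt1a, which brings fatty acids into mitochondria, fell by -1.78 and rose by 0.73 (adjusted p = 9.06e-08 and 0.00328). Fabp4, a fatty acid binding protein gene and a common marker of PPAR activity, fell by -2.38 (adjusted p = 1.34e-07) but differed by -0.22 with the extract (adjusted p = 0.607). Acaa2, an enzyme of fatty acid oxidation, went the other way, rising by 1.10 with RANKL (adjusted p = 2.10e-05) and changing by -0.76 with the extract (adjusted p = 0.00302).

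**Figure D5:**
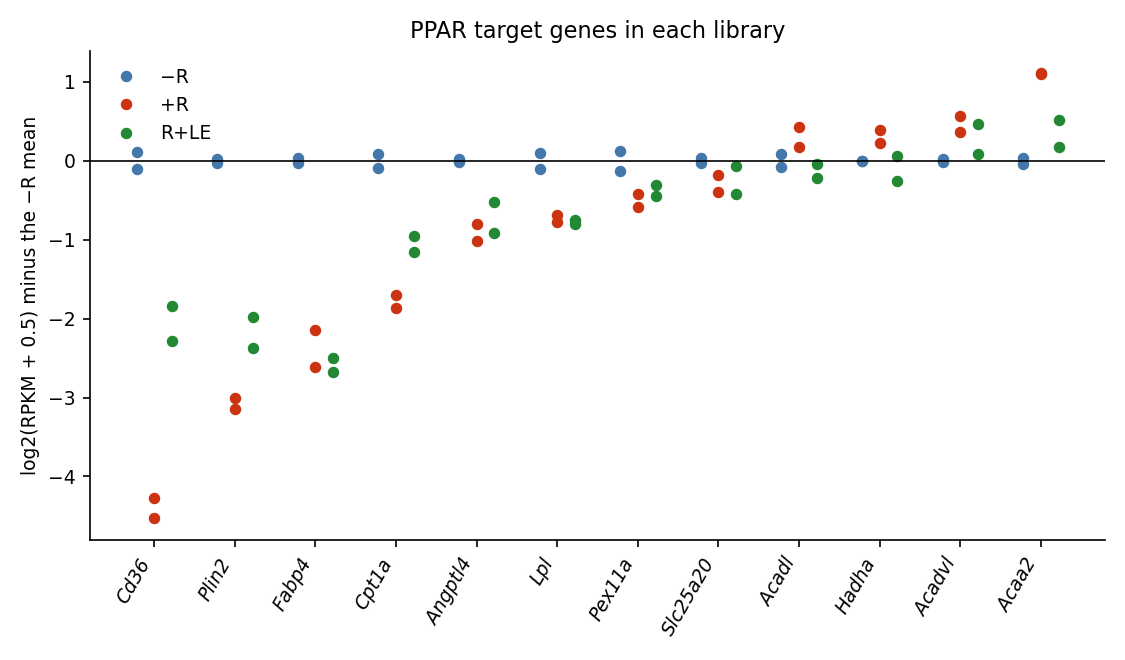
Log2(RPKM + 0.5) of the 12 tested PPAR target genes in each library, minus the mean of the -R libraries (vertical axis), with a point for each library coloured by group. Cd36 lies farthest below -R in +R, by -4.40 on average, and R+LE lies 2.34 above +R. The Fabp4 points of +R and R+LE, from 9 to 18 reads in each library, lie close together, at a difference of -0.22.

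Among known targets of the glucocorticoid receptor, all the changes with RANKL that passed the test were falls. Of 13 such genes, 11 were tested: with RANKL 0 rose and 7 fell, and with the extract 1 rose and 1 fell. The shares of all tested genes were 23.9% up and 21.5% down with RANKL, and 5.19% up and 6.86% down with the extract. Medians of the 11 were -0.60 and 0.09, beside 0.05 and -0.05 over all genes tested. Dusp1, a phosphatase that dampens MAP kinase signalling, fell with RANKL by -3.00 (adjusted p = 1.88e-10), and Sgk1, a kinase gene, by -1.85 (adjusted p = 1.44e-07). Zfp36, which destabilises cytokine mRNAs, fell by -1.69 (adjusted p = 1.53e-07), and Cd163, a haemoglobin scavenger receptor gene, by -1.72 (adjusted p = 1.00e-05). Cd163 was at 1.93 and 2.29 RPKM in -R, 0.252 and 0.334 RPKM in +R, and 0.469 and 0.726 RPKM in R+LE. It passed the filter only through -R, the group it fell from. Tsc22d3, a hallmark glucocorticoid target, was at 7.87 and 9.26 RPKM in -R, 6.26 and 4.89 RPKM in +R, and 3.12 and 2.92 RPKM in R+LE. It fell by -0.58 on the log2 scale with RANKL (adjusted p = 0.00621, up to 0.0959 among the alternative analyses) and -0.78 with the extract (adjusted p = 0.00337, up to 0.0749). Fkbp5, another hallmark target, was at 9.88 to 10.8 RPKM in -R and 8.90 to 9.77 RPKM in +R and did not pass the test (adjusted p = 0.431). Several of these genes also respond to signals other than glucocorticoids.

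Of 9 known RAR targets, 3 were tested and 2 fell with RANKL, where 21.5% of all tested genes fell. These 2 were Dhrs3, as above, and Tgm2, a transglutaminase gene, by -2.03 (adjusted p = 1.15e-07). Of 7 VDR targets, 1 was tested: Spp1, which encodes osteopontin, was at 673 and 762 RPKM in -R, 264 and 158 RPKM in +R, and 356 and 283 RPKM in R+LE. It fell with RANKL by -1.81 (adjusted p = 9.24e-06). Of 5 oestrogen receptor targets, 1 was tested: Igfbp4, which binds insulin-like growth factors, fell by -1.10 with RANKL (adjusted p = 2.30e-05) and rose by 0.51 with the extract (adjusted p = 0.0365; up to 0.435 among the alternative analyses).

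Immediate early genes were compared with Nr4a1, which is one of them, at the end of 3 days of treatment and not soon after RANKL was added. All 10 other such genes were tested: with RANKL 3 rose and 5 fell, and with the extract 2 rose and 3 fell. Of all tested genes, 23.9% rose and 21.5% fell with RANKL, and 5.19% rose and 6.86% fell with the extract. Medians of the 10 were -0.40 and -0.20, beside 0.05 and -0.05 over all genes tested. Atf3, a stress-induced transcription factor gene, was at 47.7 and 52.2 RPKM in -R, 2.56 and 1.85 RPKM in +R, and 6.00 and 4.65 RPKM in R+LE. It fell with RANKL by -4.23 (adjusted p = 2.53e-11) and rose with the extract by 1.11 (adjusted p = 0.000312). Ier3 fell with RANKL by -2.34 (adjusted p = 7.59e-08) and rose with the extract by 0.83 (adjusted p = 0.00784, up to 0.138 among the alternative analyses). Ier2 fell with RANKL by -1.04 (adjusted p = 5.72e-05), and Fosb, another AP-1 subunit gene beside Junb, fell by -1.90 (adjusted p = 1.03e-05). Fosb was at 1.44 and 1.42 RPKM in -R, 0.018 in both +R libraries, and 0.087 and 0.054 in R+LE. It passed the filter only through -R, the group it fell from. These genes fell as Nr4a1 did, whereas others rose. Junb rose with RANKL by 1.29 (adjusted p = 3.36e-06). Egr3, an early growth response factor gene, rose by 1.41 (adjusted p = 0.000207) and fell with the extract by -1.32 (adjusted p = 0.00187). Its level was 0.114 and 0.193 RPKM in -R, 1.02 and 1.49 RPKM in +R, and 0.172 and 0.221 RPKM in R+LE. Egr3 thus passed the filter only through +R, the group it rose in and fell from. Egr2 rose with RANKL by 0.76 (adjusted p = 0.00109) and had the largest fall with the extract among the 10, -1.499 (adjusted p = 1.46e-05). Immediate early genes other than Nr4a1 moved in both directions with RANKL.

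The genes whose profiles lay nearest to those of the 3 receptors called with RANKL were found by the root mean square distance between log2(RPKM + 0.5) values over the 6 libraries, each gene centred on its own mean. Nearest to Pparg were Numbl at a distance of 0.075 and Tmem154 at 0.086. Nearest to Rxra were Tmem104 at 0.072 and Arhgap22 at 0.080, and nearest to Nr4a1 were Acss1 at 0.088 and Bst2 at 0.096. Numbl was at 1.76 and 1.48 RPKM in -R against 0.239 and 0.203 in +R, and Acss1 at 2.415 and 2.374 against 0.228 and 0.246. At such low levels the added 0.5 RPKM shrinks a change, so near profiles need not mean like ratios of RPKM. The distances are descriptions over libraries that share their groups.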

How the data were processed

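The authors deposited one table of RPKM values per gene and library, made with HOMER over the exons of RefSeq genes on mm10, with reads counted on both strands and 1 transcript kept per gene. The submitters' processing notes name HISAT2, HOMER and DESeq2, while the methods name TopHat as the aligner, so the aligner is uncertain. The column titles say FPKM. Each RPKM value was multiplied by transcript length and mapped reads, which gave whole reads for 100.0% of low values within 0.1 reads. All 24940 genes were kept, with 26 symbols that a spreadsheet had turned into dates restored. Group means of log2(RPKM + 0.5) were fitted over all 6 libraries with limma 3.58.1 in R 4.3.3 (empirical Bayes with a variance trend), for the 11595 genes that averaged 0.5 RPKM or more. Called means adjusted p below 0.05 and at least 2-fold. With 2 against 2 libraries, an exact permutation test cannot go below p = 0.333 and was not used. The fit was tested on simulated data. Libraries of a group differed by more than counting error.

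Receptors and gene lists were chosen with earlier results of these data known. All 10 receptors are named, list genes are those past the test with the largest changes and the defining genes, not all of them, and nearest profiles are 2 per called receptor. Replicate numbers were not taken to pair libraries, since their deviations correlated by -0.046, 0.107 and 0.249 between groups. Promoters came from RefSeq, and exon overlaps from GENCODE vM21. Overlaps were taken over all annotated exons of a gene, so shared bases need not lie in the counted transcript. The alternatives were other pseudocounts, filters, variance models, scalings and a replicate block, voom on the recovered reads, and each library left out.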

Additional observations from a re-analysis of the deposited data

How the results depend on the processing

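Of 306 values of the 6 tested receptors (18 pairs of receptor and comparison under 17 alternatives), 283 kept their direction and side of the threshold, 19 no longer passed and 4 reversed. The number of receptors with adjusted p below 0.05 was 5 for +R against -R, 3 with no filter, and 3 to 5 with 1 library left out. For R+LE against +R it was 2, and 1 with no filter, with no variance trend, with only the groups compared and in each fit with 1 library left out. For R+LE against -R it was 4, and 3 to 4 under the alternatives. The R+LE against +R difference of Nr3c1, -0.04, became 0.0099 when centred on the median and 0.0098 under quantile normalization, and ranged from -0.1525 to 0.0703 with 1 library left out. The R+LE against -R difference of Rara ranged from -0.3283 to 0.0122 in those fits. The cause was not tested. A fit that leaves out a library assumes that the lone library varies like the other groups. With the replicate block, 5, 2 and 4 receptors passed, and no call of a receptor was lost. Called genes numbered 1797, 375 and 1192 for the 3 comparisons, and 1801, 389 and 1200 with the replicate block. With 2 libraries a group and under 120 reads for Esr1, Nr4a2, Vdr and Nr4a3, differences of moderate size in these 4 genes were not detectable.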
